A study of Mus musculus with 30 samples.

Results

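The Slc25 genes encode the mitochondrial carrier family, and here their messenger RNA was followed through the differentiation of mouse brown preadipocytes. The members were the 47 genes whose symbol is Slc25a followed by a number, out of 23109 genes or unmatched transcript accessions in the RNA tables. For the 8 members listed under more than 1 transcript accession, the one with the highest read number, summed over all 8 libraries, was used. Of the 47, 38 reached an RPKM of 1 in at least 2 libraries and were tested, where RPKM is the read number scaled to transcript length and library total.

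RNA was sequenced in 8 libraries, 1 for each of 2 genotypes at each of 4 times, so no group has a replicate. The cells were preadipocytes from interscapular brown fat of newborn GRf/f pups of strain C57BL/6J, in which the glucocorticoid receptor gene Nr3c1 is floxed, that is, open to deletion by Cre recombinase, and all of them carry SV40T, the antigen that immortalised them. Retroviral Cre gave the GR KO line, called Cre here, and retroviral Vec gave the WT line, called Vec. Both genotypes therefore share the floxed alleles, SV40T and a retroviral infection, and no label tells of more than 1 line of each. Cells were plated 4 days ahead, and the confluent cells then received 2 µg/ml dexamethasone, 0.5 mM IBMX, 0.125 mM indomethacin, 0.02 µM insulin and 1 nM T3 for 4 hours. Dexamethasone binds and activates the glucocorticoid receptor, while IBMX keeps cyclic AMP from being broken down. The groups are cells before induction (D0), after 4 hours (4h), on day 2 (D2) and on day 7 (D7). Which media followed the 4 hours is not stated in the labels. There is no uninduced 4-hour, D2 or D7 group, so time in culture and the induction mix cannot be told apart.

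Carriers of this family sit mostly in the inner mitochondrial membrane, which small charged molecules do not cross unaided, and exchange or import metabolites, nucleotides, cofactors and ions between the cytosol and the matrix. Several set the traffic that fat cells depend on: citrate leaves for fatty acid synthesis, carnitine esters enter for oxidation, and ADP and phosphate enter for ATP synthesis. Brown fat is best known for Ucp1, the uncoupling protein that lets protons return without ATP synthesis and that belongs to the same family under another symbol. Slc25a44, a carrier of branched-chain amino acids, is also known from brown fat heat production.

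The libraries held 7.7 to 28.9 M reads, with the lowest total in Cre 4h. Nr3c1 lay at 4.81, 4.04, 8.07 and 6.67 RPKM in Cre and at 24.3, 12.9, 21.3 and 32.1 RPKM in Vec at D0, 4h, D2 and D7, so the receptor transcript was lower in the Cre library at every time but was not at 0. The counts cover the whole transcript, and which exons Cre removes is not given in the labels. Of the 6 adipocyte markers examined, all 6 rose at D2 and at D7 against D0 by the model described below, and their summed level at D7 was 1630 RPKM in Cre and 4515 RPKM in Vec. In bulk RNA, fewer fat cells in a culture and less of a transcript per cell cannot be told apart, which holds for every carrier level below. The labelled brown identity could not be read from Ucp1, which had 0 reads at D0 and reached 0.0738 RPKM in Cre and 0.882 RPKM in Vec at D7. The summed brown adipocyte markers were 51.4 RPKM in Cre and 107 RPKM in Vec at D7. Most of that gap was Cox7a1, with 4.98 RPKM in Cre and 41.2 RPKM in Vec, while Cox8b had 41.2 RPKM in Cre and 49.7 RPKM in Vec. Of the 6 brown markers tested, 4 rose and 0 fell at D7 against D0, where 5.48% of all genes rose. Preadipocyte or fibroblast markers summed to 2433 RPKM in Cre and 2336 RPKM in Vec at D0, and to 2680 RPKM in Cre and 1515 RPKM in Vec at D7. Col1a1 and Col3a1 made up most of each of these sums. Skeletal muscle markers summed to between 7.14 and 43.6 RPKM, endothelial markers to at most 1.65 RPKM and the 3 macrophage markers in the tables to at most 0.32 RPKM.

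The summed level of the 47 genes was 801.2, 861.7, 1065 and 767.5 RPKM in Cre and 825, 893.1, 1235 and 1088 RPKM in Vec at D0, 4h, D2 and D7. Both lines had their highest sum at D2, and at D7 the Vec sum was above its own D0 value. The Cre sums at D0 and D7 differed by no more than scaling can move them (TMM factors 1.0312 and 0.9868). No fall in Cre can thus be read. Slc25a3, Slc25a4 and Slc25a5 alone made up between 42.9% and 56.9% of the sum, with the lowest share in Vec D7. By role, the di- and tricarboxylate, aspartate and glutamate carriers summed at D7 to 123 RPKM in Cre and 229 RPKM in Vec, against 114 RPKM in Cre and 112 RPKM in Vec at D0. The cofactor and nucleotide carriers summed to 87.5, 124, 150 and 97 RPKM in Cre and 87.5, 139, 188 and 146 RPKM in Vec at D0, 4h, D2 and D7. The iron and glutathione carriers, mostly Slc25a39, were highest at D2 in both lines, with 112 RPKM in Cre and 152 RPKM in Vec. Of the 47 genes, 15 to 21 exceeded 10 RPKM in a library and 35 to 37 reached 1 RPKM. Scaling factors moved the median of all genes in Vec 4h by 0.123 on the log2 scale (TMM), and by at most 0.088 in the other libraries under either scaling tried, so a difference of about that size in a sum at 4h cannot be read.

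**Figure D1:**
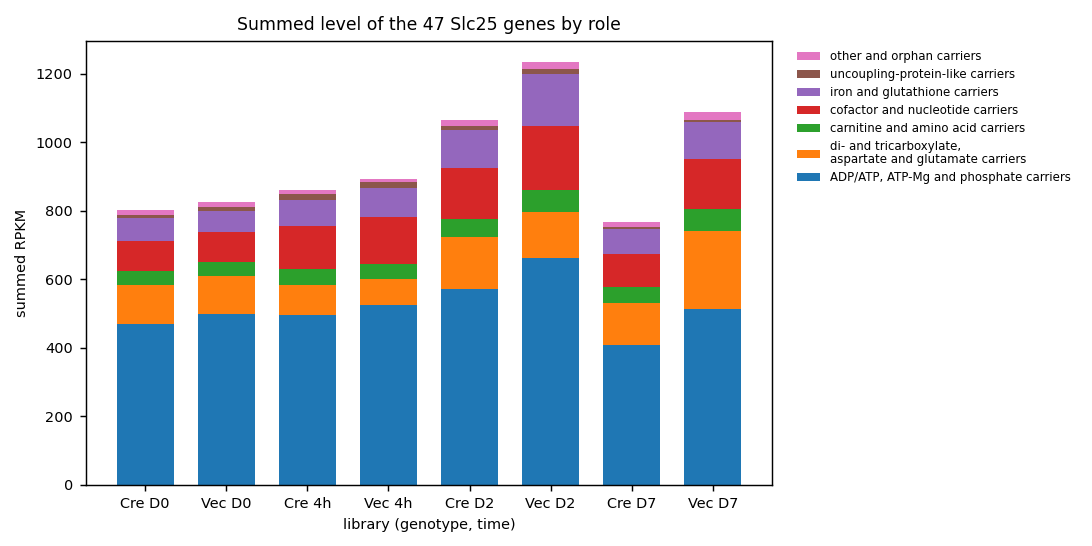
Summed RPKM of the 47 Slc25 genes in each library (1 library per bar), stacked by the role of the carriers. The bars are tallest at D2 in both lines, and at D7 the Cre bar (767.5 RPKM) is shorter than the Vec bar (1088 RPKM).

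Change with time was tested over both genotypes in a model with additive terms for time and genotype (edgeR quasi-likelihood, Benjamini-Hochberg adjustment over 12581 genes, threshold 0.05). With 1 library per group, the residual of this model is only how far the libraries depart from additive effects. Its p-values thus do not measure the spread between cultures, and a response that differs between the lines counts as error. The comparisons with D0 share the same D0 libraries. At 4h, 6 of the 38 tested carriers rose and 4 fell, while 12.3% of all tested genes rose and 13% fell. At D2, 14 rose and 2 fell, with 17.9% of all genes higher and 20.7% lower. At D7, 8 rose and 2 fell against D0, with 5.48% of all genes higher and 2.66% lower. Between D2 and D7, 3 carriers rose and 4 fell at D7, where 14.7% of all genes rose and 9.65% fell.

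The median fitted log2 change of the 38 carriers was 0.10 at 4h, 0.59 at D2 and 0.30 at D7 against D0, and -0.09 at D7 against D2, beside 0.00, 0.02, -0.01 and 0.02 for all genes tested. At D2, 31 of the 38 had a positive fitted change. Below, a fitted change is always on the log2 scale and the error after ± its SE. The 4h split of 22 positive and 16 negative carriers became 19 and 19 without scaling factors, where the 4h calls over all genes were 1087 higher and 1963 lower in place of 1544 and 1640. Without scaling factors the calls at D7 against D2 were 3 carriers higher and 7 lower.

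The calls depend on single libraries, and the calls over all tested genes also became fewer in each of the fits listed here. A loss of calls is thus not particular to the carriers. At 4h, the 10 carriers called became 0 without Vec D0, 4 without Cre D0 and 2 without Vec 4h. At D2, the 16 became 3 when Vec D0 was dropped, 6 without Vec D2 and 9 without Cre D2. At D7 against D0, the 10 became 0 when either D0 library was dropped, 2 without Vec D7, 5 without Vec D2 and 6 when Cre D2, Vec 4h or Cre 4h was left out. At D7 against D2, the 7 became 1 without Vec D2, and the 3 that rose and 4 that fell became 6 and 1 without Cre D7. The 14 that rose and 2 that fell at D2 became 1 and 2 without Vec D0. The median change at 4h was -0.04 without Vec D0 and -0.02 without Cre 4h. At D2 the calls of Slc25a24 and Slc25a42, and at D7 against D2 that of Slc25a24, held in every fit that left out a library and under every other setting tried. The D2 call of Slc25a13 held in every fit that tested it, which the fit with an RPKM minimum of 5 did not. Of the 8 fits without a library, the D7 calls of Slc25a16 and Slc25a28 against D0 were each lost in 7. No called carrier changed direction in any of these fits.

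**Figure D2:**
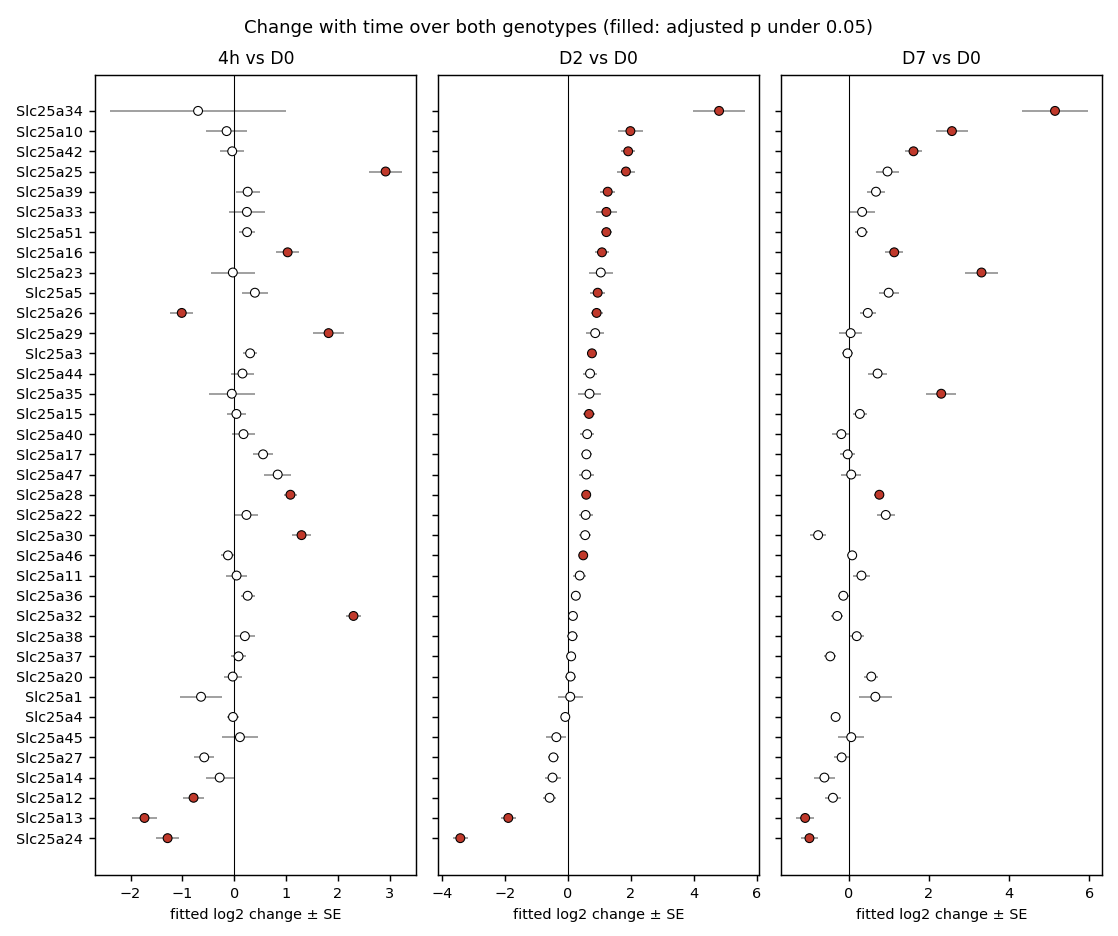
Fitted log2 change ± SE of 37 of the 38 tested Slc25 genes at 4h, D2 and D7 against D0, over both genotypes, sorted by the D2 change; filled points have an adjusted p under 0.05 (edgeR). At D2, 14 filled points lie right of 0 and 2 left of it; Slc25a34 has few reads at D0 and 4h and a wide error.

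The carriers of adenine nucleotides and phosphate were the most abundant members and also held some of the largest changes. Of the 6 tested, 1 rose and 1 fell at 4h, 3 rose and 1 fell at D2, and 1 rose and 1 fell at D7 against D0. Of all tested genes, 12.3% rose and 13% fell at 4h, 17.9% and 20.7% at D2, and 5.48% and 2.66% at D7. Slc25a4, an ADP/ATP carrier that exchanges matrix ATP for cytosolic ADP, had 249.3, 247.2, 240.1 and 196.4 RPKM in Cre and 275.5, 234.2, 262.2 and 198.5 RPKM in Vec at D0, 4h, D2 and D7. It ranked highest among the 47 in every library except Vec D2, where Slc25a3 was higher, and its change passed the test at no time. Slc25a3, which brings phosphate into the matrix, had 144, 161.9, 226.3 and 118.5 RPKM in Cre and 151.9, 181.1, 287.4 and 158.3 RPKM in Vec at D0, 4h, D2 and D7. It rose at D2 by 0.76 ± 0.13 (log2, SE; edgeR, adjusted p = 0.00992) and fell between D2 and D7, with a fitted change of -0.79 ± 0.13 (log2, SE; edgeR, adjusted p = 0.0136). Slc25a5, another ADP/ATP carrier, had 46.4, 52.2, 84.8 and 61.7 RPKM in Cre and 42.2, 57.8, 89.1 and 109.6 RPKM in Vec at D0, 4h, D2 and D7. Its rise of 0.95 ± 0.25 (log2, SE; edgeR, adjusted p = 0.0297) was called at D2, and at D7 its level in Cre was 0.563 times that in Vec (95% interval 0.529 to 0.6, counting error only). Slc25a4, Slc25a5 and their processed copies are similar in sequence, and the labels do not say where a read that fits more than 1 of them was counted, so their split is uncertain.

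The 3 tested ATP-Mg/phosphate carriers, calcium-regulated members that change the adenine nucleotide content of the matrix, each took a different course. Slc25a25 had 4.37, 20.6, 14.9 and 7.26 RPKM in Cre and 4.21, 42.2, 16.5 and 8.79 RPKM in Vec at D0, 4h, D2 and D7. It rose more than any other carrier at 4h, by 2.92 ± 0.31 (log2, SE; edgeR, adjusted p = 0.00708), and was still called at D2, by 1.84 ± 0.30 (log2, SE; edgeR, adjusted p = 0.00802). The 4h rise was 4.71-fold in Cre (4.11 to 5.4) and 10-fold in Vec (8.89 to 11.3), where the brackets are 95% intervals for counting error only. Slc25a24 went the other way, with 22.1, 10.6, 2.84 and 12.9 RPKM in Cre and 21.1, 6.63, 1.46 and 8.49 RPKM in Vec at D0, 4h, D2 and D7. It fell at 4h (-1.29 ± 0.22) and at D2 (-3.41 ± 0.23), the largest fall of any carrier, and rose between D2 and D7 by 2.44 ± 0.23 (log2, SE; edgeR, adjusted p = 0.00491). The D2 fall had the lowest adjusted p among the carriers at that time (edgeR, 0.002). At D7 Slc25a24 was still lower than at D0, with a fitted change of -0.98 ± 0.21 (log2, SE; edgeR, adjusted p = 0.0495), a call that was lost in 6 of the 8 fits without a library. Slc25a23 stayed under 5 RPKM until D2 and had 1.84, 1.7, 3.59 and 9.88 RPKM in Cre and 1.95, 1.84, 4.41 and 28.8 RPKM in Vec at D0, 4h, D2 and D7. It rose at D7 by 3.31 ± 0.41 (log2, SE; edgeR, adjusted p = 0.0154) against D0 and by 2.27 ± 0.38 against D2. The rise from D0 was 5.37-fold in Cre (4.51 to 6.44) and 14.8-fold in Vec (12.5 to 17.6). By level the order of the trio thus turned over: Slc25a24 was highest at D0 in both lines, Slc25a25 at 4h and D2 in both, and at D7 Slc25a24 in Cre and Slc25a23 in Vec.

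**Figure D3:**
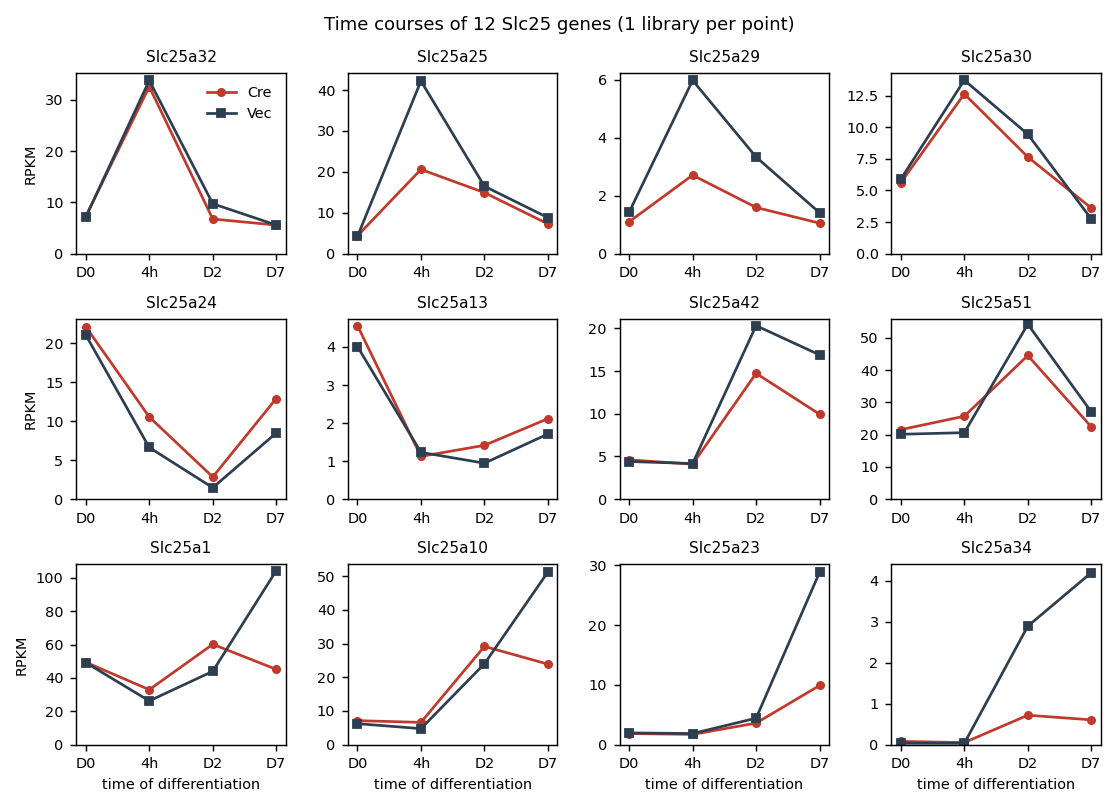
RPKM of 12 Slc25 genes at D0, 4h, D2 and D7 in Cre (circles) and Vec (squares), 1 library per point, each panel with its own axis from 0. Slc25a32, Slc25a25, Slc25a29 and Slc25a30 are highest at 4h in both lines, Slc25a24 is lowest at D2 in both, and the Vec points of Slc25a1, Slc25a10, Slc25a23 and Slc25a34 lie above the Cre points at D7.

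Windows of 250 bases upstream of annotated starts were read for 36 of the 47 members (46 windows, RefSeq, GRCm38.p6), and 4 of them are shown. Slc25a25 and Slc25a34 had the largest fitted rises at 4h and at D2. Slc25a28 is a further early riser with a motif match, and Slc25a42 a D2 riser with none; these 2 were chosen after their values and windows were seen. Capitals mark matches to 5 motifs searched on both strands: the cyclic AMP response element TGACGTCA, its core TGACG (which every full element contains), the C/EBP motif TTGCNNAA, the glucocorticoid receptor core AGAACA and the nuclear receptor core AAGGTCA.
Slc25a25, chr2:32424067-32424316, minus strand: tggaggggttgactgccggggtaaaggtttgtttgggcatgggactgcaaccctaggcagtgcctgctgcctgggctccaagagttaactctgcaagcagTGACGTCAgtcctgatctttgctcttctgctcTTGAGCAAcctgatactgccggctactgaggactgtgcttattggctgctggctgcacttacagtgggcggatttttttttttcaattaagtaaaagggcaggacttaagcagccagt
Slc25a28, chr19:43674882-43675131, minus strand: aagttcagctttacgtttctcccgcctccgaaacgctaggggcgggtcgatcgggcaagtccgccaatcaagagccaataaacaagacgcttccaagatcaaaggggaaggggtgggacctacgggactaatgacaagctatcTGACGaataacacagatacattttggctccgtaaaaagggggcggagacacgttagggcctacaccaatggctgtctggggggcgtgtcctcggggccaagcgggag
Slc25a34, chr4:141623835-141624084, minus strand: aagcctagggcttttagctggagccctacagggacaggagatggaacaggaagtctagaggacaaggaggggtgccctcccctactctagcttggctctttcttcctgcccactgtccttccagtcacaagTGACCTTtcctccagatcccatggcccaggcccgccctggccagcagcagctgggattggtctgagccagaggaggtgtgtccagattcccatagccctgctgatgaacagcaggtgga
Slc25a42, chr8:70212282-70212531, minus strand: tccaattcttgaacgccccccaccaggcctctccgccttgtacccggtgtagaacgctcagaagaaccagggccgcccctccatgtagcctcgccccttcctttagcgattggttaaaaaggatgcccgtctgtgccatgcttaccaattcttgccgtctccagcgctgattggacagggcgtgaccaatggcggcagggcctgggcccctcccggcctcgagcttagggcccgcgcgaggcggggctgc
The Slc25a25 window shown, 1 of 3 for that gene, was picked because it held TGACGTCA, which the others lack. That motif starts 150 bases before the start, and a C/EBP match starts 118 bases before it. Slc25a28 held TGACG at 107 bases and Slc25a34 held AAGGTCA, on the other strand, at 119 bases before the start, and the Slc25a42 window held none of the 5. TGACGTCA was found in 2 of the 46 member windows, those of Slc25a25 and Slc25a36, and in 1.55% of all 32851 windows. Slc25a36 was not called at 4h (0.26 ± 0.14). TGACG was found in 11 member windows and 17.8% of all windows, TTGCNNAA in 3 and 9.56%, AGAACA in 4 and 16.1%, and AAGGTCA in 1 and 4.08%. These matches are letters in a window and were not tested for binding.

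Among the carriers of di- and tricarboxylates, aspartate and glutamate, 2 of the 6 tested fell at 4h, 1 rose and 1 fell at D2, and 1 rose and 1 fell at D7 against D0. Over all tested genes, 13% fell at 4h, 17.9% rose and 20.7% fell at D2, and 5.48% rose and 2.66% fell at D7. Slc25a10, the dicarboxylate carrier that exchanges malate or succinate for phosphate, had 7.11, 6.58, 29.2 and 23.9 RPKM in Cre and 6.2, 4.73, 24 and 51.3 RPKM in Vec at D0, 4h, D2 and D7. It rose at D2 (1.98 ± 0.39) and stayed higher at D7, by 2.57 ± 0.40 (log2, SE; edgeR, adjusted p = 0.0261) against D0. Slc25a1, the citrate carrier that supplies cytosolic acetyl groups for lipid synthesis, had 49.4, 32.9, 60.2 and 45.1 RPKM in Cre and 49.2, 26.2, 44 and 104.4 RPKM in Vec at D0, 4h, D2 and D7. Its fitted changes passed the test at no time, and its D7 level was 0.914 times the D0 level in Cre (0.857 to 0.974) and 2.12 times the D0 level in Vec (2 to 2.25). Slc25a13 and Slc25a12 are the aspartate/glutamate carriers of the malate-aspartate shuttle. Slc25a13 had 4.56, 1.12, 1.41 and 2.12 RPKM in Cre and 4.01, 1.23, 0.944 and 1.71 RPKM in Vec at D0, 4h, D2 and D7, and fell at 4h (-1.73 ± 0.25), at D2 (-1.89 ± 0.23) and at D7 (-1.08 ± 0.23) against D0. Its D7 call was lost in all 8 fits without a library (edgeR, adjusted p = 0.0549 to 0.331). Slc25a12 had 11.8, 6.17, 7.78 and 10.4 RPKM in Cre and 11.9, 6.61, 8.34 and 6.78 RPKM in Vec at D0, 4h, D2 and D7, and fell at 4h, with a fitted change of -0.79 ± 0.21 (log2, SE; edgeR, adjusted p = 0.0428), and was not called at D2 or D7. Both were thus at their highest at D0 in each line. Slc25a11, the oxoglutarate carrier of the same shuttle, ranged from 28.8 to 46.8 RPKM, and Slc25a22, a glutamate carrier, from 7.44 to 17.6 RPKM, and neither was called at any time.

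Of the 7 tested carriers of carnitine and amino acids, 1 rose at 4h, 1 at D2 and none at D7, where edgeR gave an unadjusted p under 0.05 for 2 of them, Slc25a20 and Slc25a44. The shares of all tested genes that rose were 12.3%, 17.9% and 5.48% at 4h, D2 and D7. Slc25a29, a carrier of basic amino acids, had 1.1, 2.71, 1.59 and 1.05 RPKM in Cre and 1.43, 5.98, 3.33 and 1.41 RPKM in Vec at D0, 4h, D2 and D7. It rose at 4h by 1.82 ± 0.29 (log2, SE; edgeR, adjusted p = 0.0135), with levels in Vec above those in Cre at all 4 times. The Cre level was 0.768 times that in Vec at D0 (0.524 to 1.12) and 0.746 times at D7 (0.486 to 1.15). Both of these counting intervals include no difference. Slc25a15, the ornithine carrier of the urea cycle, rose at D2 by 0.67 ± 0.18 (log2, SE; edgeR, adjusted p = 0.0305) over a range of 4.995 to 10.1 RPKM. Slc25a44 had 14.2, 15.1, 20.6 and 16.2 RPKM in Cre and 13, 13.4, 24.8 and 26.9 RPKM in Vec at D0, 4h, D2 and D7, with a fitted change of 0.70 ± 0.23 (log2, SE; edgeR, adjusted p = 0.0547) at D2 and 0.72 ± 0.23 (log2, SE; edgeR, adjusted p = 0.102) at D7, neither past the threshold. Slc25a20, which exchanges acylcarnitines for carnitine, stayed between 10.0 and 19.5 RPKM. Slc25a38, a glycine carrier used in heme synthesis, stayed between 5.04 and 6.71 RPKM, while Slc25a45 and Slc25a47 did not exceed 2.71 RPKM.

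Of the 9 carriers of cofactors and nucleotides, 2 rose and 1 fell at 4h, 5 rose at D2 and 3 rose at D7 against D0, where 12.3%, 17.9% and 5.48% of all genes rose at 4h, D2 and D7. Slc25a42, which brings coenzyme A into the matrix, had 4.59, 4.09, 14.7 and 9.94 RPKM in Cre and 4.4, 4.17, 20.3 and 16.9 RPKM in Vec at D0, 4h, D2 and D7. It rose at D2 by 1.91 ± 0.22 (log2, SE; edgeR, adjusted p = 0.00375) and was still higher at D7 (1.62 ± 0.22). Slc25a51, the NAD carrier, had 21.5, 25.7, 44.5 and 22.4 RPKM in Cre and 20.1, 20.6, 54.2 and 27 RPKM in Vec at D0, 4h, D2 and D7. It rose at D2 by 1.22 ± 0.16 (log2, SE; edgeR, adjusted p = 0.00496) and fell between D2 and D7, with a fitted change of -0.89 ± 0.16 (log2, SE; edgeR, adjusted p = 0.0162).

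Slc25a32, a carrier of folate and FAD, had close levels in the 2 lines at 4h. It had 7.27, 32.6, 6.75 and 5.57 RPKM in Cre and 7.11, 33.8, 9.73 and 5.57 RPKM in Vec at D0, 4h, D2 and D7, and rose at 4h by 2.30 ± 0.15 (log2, SE; edgeR, adjusted p = 0.00497), the lowest adjusted p of any carrier at that time. The 4h level was 4.48 times the D0 level in Cre (4 to 5.02) and 4.75 times in Vec (4.27 to 5.28), and by D2 both lines were under 10 RPKM again. Slc25a26, which imports S-adenosylmethionine for methylation, had 2.44, 1.01, 3.97 and 2.91 RPKM in Cre and 2.6, 1.32, 5.83 and 3.78 RPKM in Vec at D0, 4h, D2 and D7. It fell at 4h (-1.01 ± 0.23) and rose at D2 (0.91 ± 0.19) against D0. Slc25a16 rose at 4h, D2 and D7, by 1.03 ± 0.23, 1.08 ± 0.22 and 1.14 ± 0.23, over a range of 5.53 to 15.4 RPKM. Slc25a33, a pyrimidine nucleotide carrier, rose at D2 by 1.22 ± 0.33 (log2, SE; edgeR, adjusted p = 0.0316) over a range of 2.63 to 9.63 RPKM, and Slc25a36, the other pyrimidine nucleotide carrier, was not called at any time. Slc25a17, a carrier of peroxisomes and not of mitochondria, ranged from 24.6 to 49.3 RPKM and lay at the threshold without passing it at D2.

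All 4 carriers of iron and glutathione were tested, and 1 rose at 4h, 2 at D2 and 1 at D7 against D0. Beside them, 12.3%, 17.9% and 5.48% of all tested genes rose at 4h, D2 and D7. Slc25a28 and Slc25a37 are the mitoferrins, which bring iron in for heme and iron-sulfur clusters. Slc25a28 had 10.5, 20.8, 15.6 and 15.5 RPKM in Cre and 12.1, 24, 18.8 and 21.1 RPKM in Vec at D0, 4h, D2 and D7. It rose at 4h by 1.08 ± 0.13 (log2, SE; edgeR, adjusted p = 0.00767), and stayed higher at D2 (0.58 ± 0.12) and D7 (0.77 ± 0.13) against D0. Slc25a37 had 9.67, 9.38, 9.07 and 7.12 RPKM in Cre and 9.2, 9.25, 11.5 and 5.83 RPKM in Vec at D0, 4h, D2 and D7, and was called in 1 comparison, at D7 against D2, with a fitted change of -0.56 ± 0.15 (log2, SE; edgeR, adjusted p = 0.0456). That call was lost in all 8 fits without a library (edgeR, adjusted p = 0.0517 to 0.275). Slc25a39, a glutathione carrier and the fourth most abundant member by mean RPKM, had 41.4, 42.3, 81.5 and 45.1 RPKM in Cre and 36.5, 45.9, 113 and 76.8 RPKM in Vec at D0, 4h, D2 and D7. It rose at D2 by 1.26 ± 0.23 (log2, SE; edgeR, adjusted p = 0.0116), whereas Slc25a40, its close relative, ranged from 3.58 to 8.64 RPKM without a call.

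The 3 members that resemble uncoupling proteins did not exceed 13.7 RPKM, and 1 of them rose at 4h, where 12.3% of all genes rose. Slc25a30 had 5.62, 12.6, 7.65 and 3.6 RPKM in Cre and 5.89, 13.7, 9.44 and 2.74 RPKM in Vec at D0, 4h, D2 and D7. It rose at 4h by 1.30 ± 0.19 (log2, SE; edgeR, adjusted p = 0.0113) and fell between D2 and D7, with a fitted change of -1.31 ± 0.19 (log2, SE; edgeR, adjusted p = 0.0104). Slc25a14 ranged from 1.61 to 3.08 RPKM and Slc25a27 from 1.55 to 2.95 RPKM, with no call.

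Slc25a34 and Slc25a35, 2 carriers without a settled substrate, lay under 1 RPKM at D0 and 4h in both lines. Slc25a34 had 0.0774, 0.0484, 0.717 and 0.604 RPKM in Cre and 0.0317, 0.0304, 2.89 and 4.2 RPKM in Vec at D0, 4h, D2 and D7. These values rest on 1 to 5 reads per library at D0 and 4h, against 51 reads in Cre and 224 in Vec at D2, so the fitted rises of 4.80 ± 0.82 at D2 and 5.14 ± 0.82 at D7 depend on very few reads at D0. Both rises were called by edgeR (adjusted p = 0.00912 at D2 and 0.0273 at D7), but not by limma on log2(RPKM + 1), where the adjusted p was 0.0685 at D2 and 0.0904 at D7. Without the Vec D0 library the fitted changes were 2.99 at D2 and 3.30 at D7, with edgeR adjusted p of 0.0758 and 0.242. Slc25a35 had 0.681, 0.781, 0.929 and 2.17 RPKM in Cre and 0.932, 0.714, 1.8 and 6.02 RPKM in Vec at D0, 4h, D2 and D7, and rose at D7 by 2.31 ± 0.37 (log2, SE; edgeR, adjusted p = 0.0278) against D0 and by 1.62 ± 0.35 against D2. Slc25a46, an outer membrane protein of the family that acts in mitochondrial shape, rose at D2 by 0.49 ± 0.13 (log2, SE; edgeR, adjusted p = 0.0297) over a range of 8.47 to 16.9 RPKM, a call that limma did not make.

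The 9 members that were not tested were all at very low levels. Slc25a43 was at 0.635 RPKM in Cre D0 and 1.11 RPKM in Vec D0, its highest levels. Slc25a18, a glutamate carrier, reached at most 0.778 RPKM, Slc25a53 at most 0.774 RPKM and Slc25a2, an ornithine carrier, at most 0.504 RPKM. Slc25a21, Slc25a31, Slc25a41, Slc25a48 and Slc25a54 did not exceed 0.169 RPKM in any library.

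**Figure D4:**
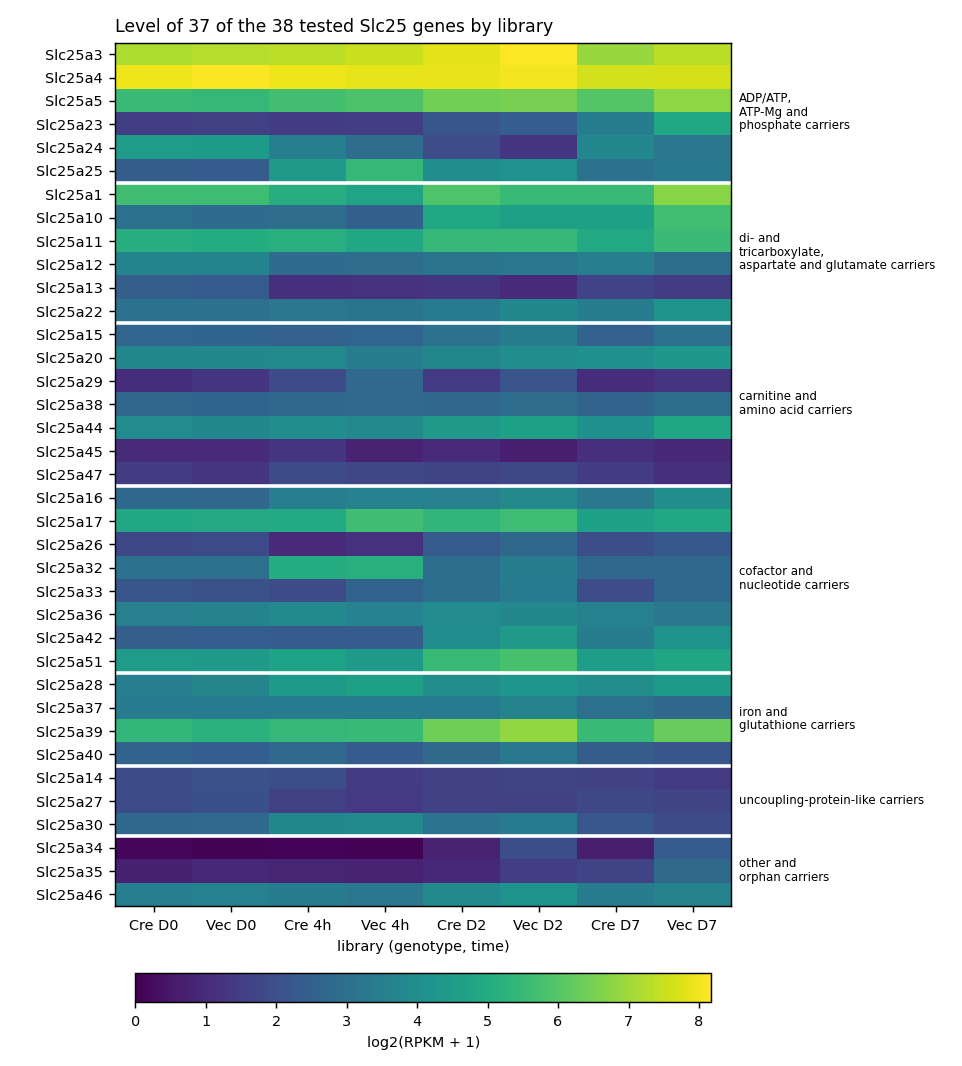
Level of 37 of the 38 tested Slc25 genes as log2(RPKM + 1), with genes in rows grouped by role and the 8 libraries in columns (1 library per column). Slc25a4 and Slc25a3 are the brightest rows throughout, and Slc25a34 is dark at D0 and 4h.

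Of the 38 tested carriers, 6, 9, 18 and 5 had their highest RPKM at D0, 4h, D2 and D7 in Cre, where 26.1%, 27.2%, 31% and 15.8% of all tested genes did. In Vec, 7, 6, 12 and 13 carriers had their highest RPKM at D0, 4h, D2 and D7, beside 29.1%, 18.9%, 32.7% and 19.3% of all tested genes. Some of these maxima are slight: in Cre the highest level was 1.11 times the lowest for Slc25a38 and 1.27 times for Slc25a4. The same time held the highest level in both lines for 10 carriers at D2, and for 5 at each of the other times. The lowest level lay at 4h in 13 carriers of each line and at D0 in 12 of each. This count and that of shared maxima were not made over all tested genes, so neither can be called particular to the carriers.

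Genotype was compared at each time by size alone, since each group holds 1 library: a carrier was counted when its Cre and Vec values of log2(RPKM + 1) were 1 or more apart, provided that its RPKM was 1 or more in either library. No test can be given for these differences. At D0, 0 of 37 carriers compared were counted in either direction, where 0.158% of all genes were higher in Cre and 0.275% lower. At 4h, 0 of 36 were higher in Cre and 1 was lower, Slc25a25 at the threshold itself (-1 on the log2(RPKM + 1) scale), beside 1.65% and 2.59% of all genes. Scaled to library totals, its reads in Cre were 0.488 times those in Vec (95% interval 0.442 to 0.538). At D2, 0 of 38 were higher and 1 was lower, Slc25a34 (-1.18), beside 2.55% and 1.54% of all genes.

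At D7, 0 of 38 were higher in Cre and 6 were lower, where 1.39% of all genes were higher and 3.12% lower. Among them were Slc25a34 (-1.70), Slc25a23 (-1.45), Slc25a1 (-1.19), Slc25a35 (-1.15) and Slc25a10 (-1.07), each on the log2(RPKM + 1) scale. These belong to different roles: citrate, dicarboxylate and ATP-Mg/phosphate transport and 2 orphans. By reads, Cre had 0.432 times the Vec level of Slc25a1 (0.407 to 0.459), 0.466 times that of Slc25a10 (0.441 to 0.492) and 0.343 times that of Slc25a23 (0.314 to 0.374). The Slc25a34 level in Cre was 0.144 times that in Vec (0.0992 to 0.204) and the Slc25a35 level 0.36 times (0.278 to 0.465). All of these intervals cover counting error only.

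The median difference of the carriers, Cre minus Vec, was 0.01, -0.00, -0.26 and -0.28 at D0, 4h, D2 and D7, beside 0.01, 0.11, -0.04 and 0.03 for all genes compared. At D2, 31 of 38 carriers were lower in Cre and 7 higher, and at D7 27 were lower and 11 higher, and both splits were the same after rescaling by TMM or by the median of ratios. At 4h the split of 18 and 18 became 14 higher and 22 lower after TMM rescaling. Slc25a24 had the largest positive difference at each later time, 0.60, 0.64 and 0.55 at 4h, D2 and D7. Scaled to library totals, its reads in Cre were 1.94 times those in Vec at D2 (1.58 to 2.4). The standard deviation of the difference over all genes was 0.166 at D0 and between 0.448 and 0.456 at the later times.

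**Figure D5:**
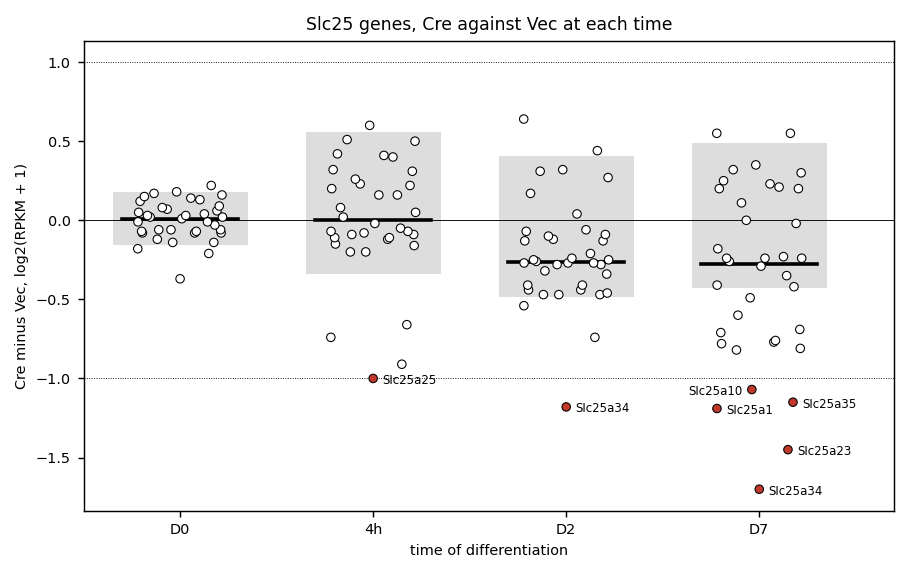
Difference between Cre and Vec in log2(RPKM + 1) for the Slc25 genes shown at D0, 4h, D2 and D7 (1 library per genotype and time); black bars are the medians of all carriers compared, grey bands the median of all genes ± 1 SD, dotted lines a difference of 1. At D7, 5 named genes lie below the lower line and none above the upper.

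Over all times together, the genotype term of the model called 0 of the 38 carriers and 0% of the 12581 genes (edgeR). At an unadjusted p under 0.05 it held 9 carriers and 1484 genes, and the lowest adjusted p of a carrier was 0.412. Those 9 were Slc25a24, higher in Cre by a fitted 0.52 ± 0.15 (log2, SE), and Slc25a3, Slc25a17, Slc25a26, Slc25a28, Slc25a29, Slc25a33, Slc25a34 and Slc25a35, all with negative fitted differences. The Slc25a29 difference of -0.80 ± 0.20 had the lowest unadjusted p of them, 0.00793, and an edgeR adjusted p of 0.412. DESeq2 called 19 genes, edgeR without the filter on low values 1 and limma 0, and no carrier was among them. The fitted difference was negative for 29 of the 38 carriers, with a median of -0.19 beside -0.01 for all genes tested, and without scaling factors it was negative for 28.

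Other measured genes also differed between the lines at D7. The 6 adipocyte markers were each lower in Cre by the size rule, with a median of -1.56, where 3.12% of all genes were lower. Of the 5 brown markers compared, 2 were lower. Among 27 enzymes on either side of the carriers, such as citrate synthase and the acyl-CoA dehydrogenases, 14 were lower in Cre and 1 higher, with a median of -1.03. Preadipocyte markers had a median difference of 0.74 and skeletal muscle markers of 0.85 in the opposite direction. By the size rule, 1 of 6 preadipocyte markers and 1 of 6 muscle markers compared were higher in Cre, beside 1.39% of all genes. At D2 the same rule counted 1 of the 6 adipocyte markers as higher in Cre, Adipoq (1.25), and 0 as lower, with a median of -0.25. Of the 27 enzymes, 2 were higher and 1 lower at D2, beside 2.55% and 1.54% of all genes. The part of these marker differences in the D2 and D7 differences of the carriers was not tested.

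The same lists give the setting of the changes with time. Of the 27 enzymes, 10 rose at D2 against D0, where 17.9% of all genes rose, and 8 rose at D7, where 5.48% did. Pcx, pyruvate carboxylase, and Gpd1, the cytosolic glycerol phosphate dehydrogenase, rose by 3.75 and 4.44 on the log2 scale at D2. At 4h, 1 enzyme fell, Idh1. Of 15 other mitochondrial membrane transporters, 5 rose and 3 fell at D2, where 17.9% of all genes rose and 20.7% fell. At D7, 2 of them rose and 1 fell, beside 5.48% and 2.66% of all genes. Mpc1 and Mpc2, which form the pyruvate carrier, rose at D2 by 1.85 and 2.79 and at D7 by 2.17 and 2.10 on the log2 scale. Vdac1, Vdac2 and Vdac3, the outer membrane channels, were not called at any of these times.

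Of the 3 family members under other symbols that were tested, Ucp2 was the one that rose against D0, and it did so at each time. Ucp2 had 2.6, 7.5, 6.2 and 9.3 RPKM in Cre and 3.01, 14.7, 10.4 and 23.2 RPKM in Vec at D0, 4h, D2 and D7. Its fitted changes against D0 were 2.00, 1.48 and 2.48 at 4h, D2 and D7 (edgeR, adjusted p = 0.0108, 0.0118 and 0.0125). Mtch1, an outer membrane protein, fell at D2 by 0.88 and rose between D2 and D7 by 0.52 on the log2 scale (edgeR, adjusted p = 0.0326), and Mtch2 was not called. Ucp1 and Ucp3 were too low to test, with at most 0.882 and 0.70 RPKM.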

How the data were processed

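Per the file headers, the authors deposited a read count and an RPKM value per RefSeq transcript for each of 8 RNA libraries; per the submitters' processing notes CASAVA 1.8.2, SICER and build mm9 were used, and which program aligned and counted the RNA reads is not given there. The labels list 30 samples; the 22 from ChIP were not analysed here. Dividing count by RPKM gives the library total times the transcript length, up to a constant. Each library's total, 7.7 to 28.9 M reads, was inferred from the common step between these products and used as the library size. Of 29082 accessions, 28436 (97.8%) matched a symbol in a RefSeq table of GRCm38.p6, used for names and upstream windows.

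The 12581 genes that reached an RPKM of 1 in 2 or more libraries were fitted on counts with edgeR 4.0.16 quasi-likelihood (R 4.3.3, TMM, time + genotype, 3 residual degrees of freedom, common biological coefficient of variation 0.176). The code was run on simulated counts with less variation than here and no departure from additive effects, which does not test the calls. Alternatives were DESeq2 1.42.0, limma 3.58.1, other scalings, filters and pseudocounts, summed accessions and leaving out each library. Cre and Vec were compared at each time on log2(RPKM + 1), with 95% Clopper-Pearson intervals on reads, which cover counting error only. Members and lists were chosen with earlier results of these data known. Values in all libraries are printed for the 4 members with the highest mean RPKM, up to 5 called in each direction per time comparison, and those counted between Cre and Vec; Slc25a44 was added for its known role in brown fat. One tested member is not reported here, though counts, sums and medians include it.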

Additional observations from a re-analysis of the deposited data

Results flagged for a closer look

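By RPKM without scaling factors, Slc25a1 went opposite ways in the lines between D0 and D7. On the log2(RPKM + 1) scale it changed by -0.13 in Cre and by 1.07 in Vec, a difference of -1.20, and between D2 and D7 it changed by -0.41 in Cre and by 1.23 in Vec, a difference of -1.64. Slc25a10 did so between D2 and D7, with -0.28 in Cre and 1.06 in Vec, a difference of -1.34. In each case the counting intervals of both lines, taken without scaling factors, lay on opposite sides of no change. Other carriers did the same with smaller differences. Between D2 and D7 these included Slc25a5 (-0.75), Slc25a16 (-0.50) and Slc25a44 (-0.44), lower at D7 in Cre and higher in Vec, and Slc25a12 (0.64), with the reverse. The Slc25a1 fall in Cre from D0 to D7 was slight, to 0.914 times the D0 level (0.857 to 0.974). The TMM factors of Cre D0 and Cre D7, 1.0312 and 0.9868, are enough to bring that interval to no change, so its direction is not settled. Each line holds 1 library per time, so the differences were not tested, and the 3 comparisons of Slc25a1 and Slc25a10 share the D7 libraries.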

How the results depend on the processing

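Of the gene-level results for named carriers recomputed under the alternatives, 467 kept their call, 111 lost it and 0 reversed. Leaving out a library in turn gave 0 to 11 carriers called at 4h, 3 to 23 at D2, 0 to 14 at D7 against D0, 1 to 10 at D7 against D2 and 0 to 0 for genotype; a fit that leaves 1 library at a time point assumes that it varies like the others. An RPKM minimum of 5 gave 5 calls at D7 against D0, and DESeq2 gave 11 at D7 against D2, in place of 10 and 7. Between Cre and Vec, the 1 carrier counted at 4h became 2 with a pseudocount of 0.25 and 2 after TMM or median-of-ratios rescaling, with Slc25a29 added, and 0 with a pseudocount of 5. The 1 carrier counted at D2 became 0 with a pseudocount of 5 or an RPKM minimum of 5, and the 6 at D7 became 3 with a pseudocount of 5. The cause was not tested. Calls also lost under a setting other than leaving out a library included, with limma, those of Slc25a34 at D2 with a pseudocount of 1 and at D7 with 1 or 0.25, and that of Slc25a46 at D2 with 1 or 0.25. Others included those of Slc25a24 at D7 with an RPKM minimum of 5 or with summed accessions (edgeR, adjusted p = 0.0602 and 0.0519) and Slc25a37 at D7 against D2 with an RPKM minimum of 5 (edgeR, adjusted p = 0.0567). The model pairs Cre and Vec by time. Because each group holds 1 library, no replicate block could be added to the time and genotype terms. Depth limits Slc25a34 most, with 1 to 5 reads at D0 and 4h.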
